A study of Homo sapiens with 6 samples.

Results

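YAP target genes are described here through 10 genes found by their exact symbols in a table of 31628 genes: CTGF, CYR61, ANKRD1, AJUBA, AMOTL2, AXL, LATS2, FJX1, TEAD1 and YAP1 itself. CTGF and CYR61 are the older symbols of CCN2 and CCN1. All 10 symbols matched exactly 1 row. RNA was sequenced from HCT116 cells, an established human colon cancer line, in which the gene for the histone acetylation reader ENL carries an auxin-inducible degron (AID) and which stably express the plant E3 ligase component AtAFB2. The 6 libraries form 3 groups of 2 replicates, all of these ENL-AID cells: control without auxin, cells given the auxin IAA for 3 h with the dose given as 500 um in the labels, and washout cells, given IAA, washed with PBS and kept 48 h in normal medium. The labels speak of selected AID clones and do not say whether the libraries come from 1 clone or from separate cultures, so p-values measure only the spread between these libraries, which may be technical. No library of cells without the degron given IAA was analysed here, so effects of IAA itself and of ENL loss cannot be told apart. No control library is labelled as washed and kept for 48 h. In both washout comparisons, recovery from IAA cannot be told apart from effects of the wash and the added time in culture.

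YAP is a transcriptional coactivator at the end of the Hippo pathway. The kinases LATS1 and LATS2 phosphorylate it, which holds it in the cytoplasm, and unphosphorylated YAP enters the nucleus and binds DNA through TEAD transcription factors. CTGF, CYR61 and ANKRD1 are the most widely used readouts of YAP and TEAD activity, while LATS2, AMOTL2 and AJUBA are targets that also act back on the pathway. In the intestine YAP is known for its part in regeneration and in tumour growth.

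The values in the deposited table are FPKM, reads scaled to gene length and library size. For 77.7% of the genes above 0 they give whole reads when the length is the full gene span with introns, so long genes can have low FPKM at many reads. FJX1 and TEAD1 are not among these, and the whole-read solution nearest to the span was used for them. Whole reads per gene were recovered this way and tested with voom, limma's method for counts, beside limma on FPKM. Library totals recovered from the values ran from 16442834 to 16770842 reads. MLLT1, which encodes ENL, had 459 and 480 reads in control, 445 and 402 under IAA and 463 and 428 after washout, and its difference between IAA and control did not pass (voom adjusted p = 0.213). This gives no check of the labels, since the degron acts on the protein. Of 8 colon epithelium markers 7 had a mean FPKM of at least 1 and CDX1 was listed at 0. Their summed FPKM was 336 to 346 in control, 268 to 272 under IAA and 324 to 340 after washout, and the part of this shift in the results below was not tested. KRT18, KRT19 and KRT8 made up nearly all of this sum and fell with IAA (limma adjusted p = 0.0221, 0.0137 and 0.0228). The markers did not move one way: by voom 4 of 7 tested were lower with IAA (EPCAM and the 3 keratins) and 2 were higher (CDX2 and VIL1). Over all 14544 genes tested by voom, 23.9% were called with IAA in either direction. In bulk libraries like these, fewer cells of a kind and less RNA per cell cannot be told apart. None of the 16 matched markers of fibroblasts, endothelium and blood reached an FPKM of 1, and CD3E was listed at 0. Fibroblast markers summed to 0.523 to 0.545 FPKM in control, 0.618 to 0.773 under IAA and 0.743 to 0.764 after washout. COL1A1 was the highest of them, with a mean of 0.642 FPKM over all libraries. Only 1 fibroblast marker had enough reads for voom, and it was not called in any comparison. Its unadjusted voom p was under 0.05 in IAA against control (log2 change 0.34) and in washout against control (0.46).

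As reads scaled to exon length and library size (exon RPKM, exons of GENCODE 29, all transcripts of a gene merged), the control level was highest for CYR61 at 41.4 ± 0.958 (SD, n = 2). YAP1 followed with 35.9 ± 1.36, AXL with 32.8 ± 0.212, AMOTL2 with 31.1 ± 0.663, TEAD1 with 22.3 ± 0.507, AJUBA with 18.5 ± 1.82, CTGF with 14.9 ± 1.13 and LATS2 with 9.64 ± 0.123. FJX1 stood at 4.76 ± 0.221 and ANKRD1 at 0.575 ± 0.0037. No 2 neighbours in this order overlapped between their control libraries. With IAA the order of the first 6 became CYR61 (37.7), YAP1 (33.7), AMOTL2 (31.3), AJUBA (27.1), AXL (23.0) and TEAD1 (21.3), so AJUBA passed AXL and TEAD1. After washout the first 6 stood in the control order, at 42.0, 38.0, 34.0, 31.7, 25.5 and 20.1. Neighbours among these 6 did not overlap between libraries in either group. The position in the order depends on the exon length used, and the fold changes and recovered-read changes below do not. The limma changes below are on log2(FPKM + 1). Their size depends on the gene length within the FPKM and is shrunk where FPKM is low. The processing notes name no annotation, and whether reads in introns were counted was not tested. Such reads would raise the exon RPKM of genes with long introns.

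**Figure D1:**
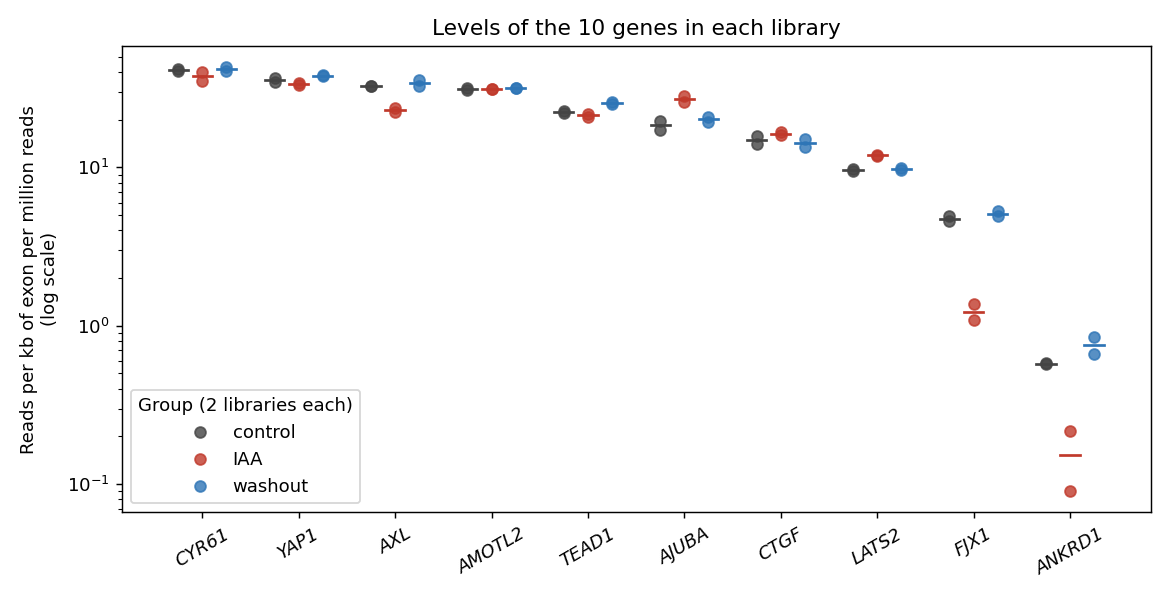
Level of each of the 10 genes as exon RPKM (log axis), ordered by control mean. Points are single libraries and short lines are group means of 2 libraries. FJX1 and ANKRD1 lie lowest with IAA, AJUBA and LATS2 lie highest with IAA, and AMOTL2 keeps nearly the same level in all 6 libraries.

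Setting IAA beside control asks which transcripts differ after 3 h of IAA. The 10 genes did not move together. FJX1 and AXL fell and AJUBA rose by the test on FPKM, and ANKRD1 fell and LATS2 rose on recovered reads. CTGF and AMOTL2 did not pass either test, CYR61 and YAP1 passed 1 of the tests by a narrow margin, and TEAD1 did not pass. In limma on log2(FPKM + 1), 7 of the 10 genes reached the filter of a mean FPKM of 1: 1 was higher, 2 were lower and 4 did not pass an adjusted p of 0.05. Over all 8317 genes tested, 13.1% were called, 552 higher and 540 lower (397 and 647 with FPKM rescaled to TPM). The median log2 change was -0.06 over the 7 genes and 0.01 over all genes. ANKRD1, LATS2 and TEAD1 lay below the filter. In voom on recovered reads all 10 were tested, with 2 higher, 5 lower and 3 not called, where 23.9% of 14544 genes were called. There the median log2 change was -0.11 over the 10 genes and 0.0012 over all genes. These genes were picked with results of these data known, so nothing particular to them is drawn from the counts.

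FJX1, a secreted and Golgi-resident relative of the fly kinase Four-jointed that modifies Fat and Dachsous cadherins, had the largest difference. Its FPKM was 4.48 and 4.20 in control, 1.25 and 0.999 under IAA and 4.84 and 4.47 after washout. Both IAA libraries lay far below the other 4, with no overlap. The mean went from 4.34 ± 0.202 to 1.12 ± 0.174 FPKM (SD, n = 2), 0.259 of control (limma log2 change -1.33, SE 0.07, adjusted p = 0.00351). The log2(FPKM + 1) scale shrinks this change, which was -1.99 (SE 0.23) on recovered reads, from 200 and 189 reads to 55 and 45. The FJX1 call held whichever library was left out (highest adjusted p 0.0432).

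AXL, the receptor tyrosine kinase for the ligand GAS6, had 3.99 and 3.95 FPKM in control, 2.69 and 2.86 under IAA and 4.29 and 3.94 after washout. The IAA libraries again lay below all others. The fall was to 0.701 of control (limma log2 change -0.39, SE 0.05, adjusted p = 0.0157). Without 1 control or IAA library the limma adjusted p was 0.0744 to 0.0896 (0.0878 without control replicate 1, 0.0896 without control replicate 2, 0.0845 without IAA replicate 1, 0.0744 without IAA replicate 2). On recovered reads the log2 change of AXL was -0.55 (SE 0.05), and it was -0.60 to -0.50 whichever library was left out.

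ANKRD1, an ankyrin repeat protein of the nucleus and the muscle sarcomere, was nearly silent in these cells. It had 19 and 19 reads in control, 7 and 3 under IAA and 22 and 28 after washout, which correspond to 0.125 and 0.123, 0.0464 and 0.0195, and 0.143 and 0.183 FPKM. The groups did not overlap, and the IAA mean was 0.266 of control. The log2 change on recovered reads was -1.96 (SE 0.57, voom adjusted p = 0.00904), with a 95% confidence interval of -3.11 to -0.81 from these few reads. Without IAA replicate 2, which held 3 reads, the change was -1.40 and did not pass (0.151).

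AJUBA and LATS2 both act on the Hippo kinase step. AJUBA, a LIM domain protein that binds LATS kinases and restrains them, had 8.95 and 10.3 FPKM in control, 14.8 and 13.5 under IAA and 10.9 and 10.1 after washout. Both IAA libraries were above all others. It rose 1.47-fold (limma log2 change 0.51, SE 0.08, adjusted p = 0.0282). That call rests on all 6 libraries: the limma adjusted p was 0.0587 to 0.123 without 1 of them (0.102 and 0.0798 without control replicates 1 and 2, 0.123 and 0.0899 without IAA replicates 1 and 2, 0.0587 and 0.0587 without washout replicates 1 and 2). On recovered reads the log2 change of AJUBA was 0.52 (SE 0.06), and it was 0.42 to 0.62 whichever library was left out. LATS2, the kinase that phosphorylates YAP, had 901 and 893 reads in control, 1098 and 1109 under IAA and 904 and 915 after washout. The IAA libraries stood clear of the rest, at 1.24-fold of control in FPKM (voom log2 change 0.27, SE 0.07, adjusted p = 0.00374). Without 1 library the log2 change of LATS2 was 0.26 to 0.28.

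CTGF and CYR61 are secreted matricellular proteins and standard readouts of YAP activity. CTGF had 11.5 and 10.3 FPKM in control, 12.2 and 11.7 under IAA and 11 and 9.84 after washout. Its IAA libraries lay slightly above the others, and the difference did not pass (limma log2 change 0.12, 95% confidence interval -0.08 to 0.32, adjusted p = 0.347). CYR61 had 32.2 and 31.2 FPKM in control, 27.0 and 30.8 under IAA and 31.4 and 33.0 after washout. Its 2 IAA libraries differed from each other by more than the control libraries did. Limma did not call it (log2 change -0.13, interval -0.32 to 0.06, adjusted p = 0.285). Voom did (log2 change -0.17, adjusted p = 0.0414), but not without IAA replicate 1 (-0.08, adjusted p = 0.549), control replicate 1 (0.200) or control replicate 2 (0.0912), nor with library totals in place of TMM factors (0.113).

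YAP1, TEAD1 and AMOTL2 had, beside CTGF, the smallest log2 differences with IAA. YAP1 had 1.79 and 1.88 FPKM in control, 1.70 and 1.75 under IAA and 1.93 and 1.97 after washout. Each IAA library lay below every other library, by a small step. The limma log2 change was -0.06 (interval -0.15 to 0.04, adjusted p = 0.352). On recovered reads it was -0.12 (voom adjusted p = 0.0487), and it did not pass without control replicate 2 (0.399), IAA replicate 1 (0.262) or IAA replicate 2 (0.0691), or with library totals alone (0.173). TEAD1, the DNA-binding partner of YAP, had 3865 and 3777 reads in control, 3526 and 3760 under IAA and 4314 and 4443 after washout (voom log2 change with IAA -0.10, interval -0.19 to -0.01, adjusted p = 0.124). AMOTL2, an angiomotin that binds YAP at cell junctions, was the flattest of the 10: 9.36 and 9.65 FPKM in control, 9.54 and 9.57 under IAA, and 9.62 and 9.73 after washout. Its limma interval for IAA against control was -0.09 to 0.10 on the log2(FPKM + 1) scale.

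**Figure D2:**
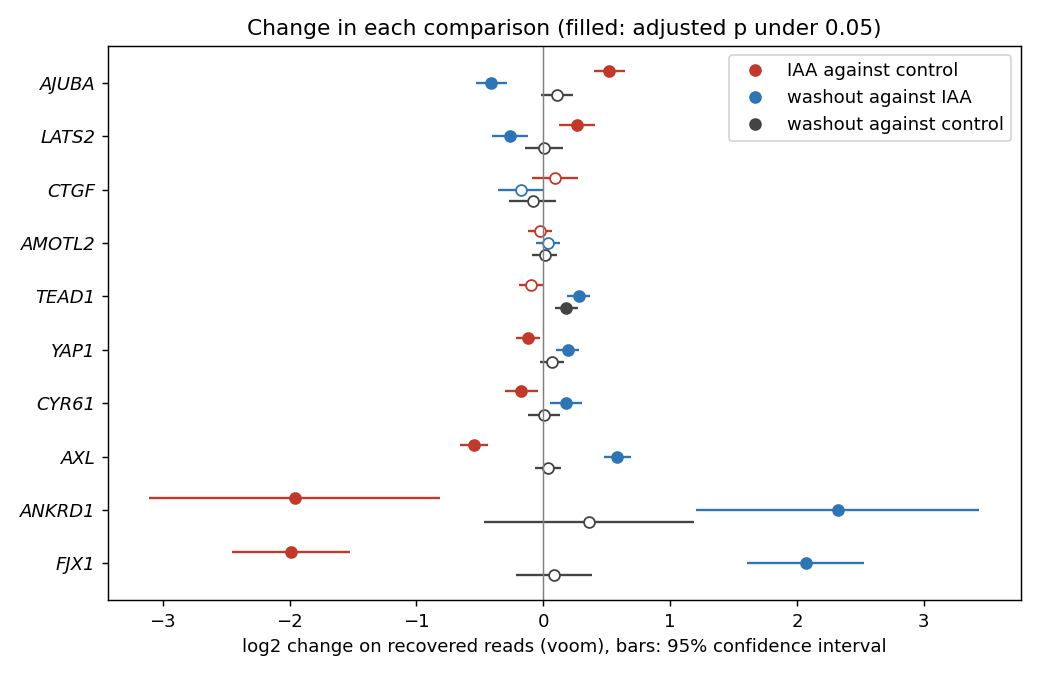
Log2 change of each gene on recovered reads (voom) in IAA against control (red), washout against IAA (blue) and washout against control (grey), with 95% confidence intervals. Filled points have an adjusted p under 0.05. Genes called with IAA lie on opposite sides of 0 in the first 2 comparisons, which share the IAA libraries, and 9 of the 10 grey points are open.

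Setting washout beside IAA asks whether levels return after IAA removal, which here includes the wash and 48 h of further culture. It shares the IAA libraries with the comparison above, so opposite signs are partly built in. By limma FJX1 and AXL rose, AJUBA fell and 4 of the 7 tested genes did not pass, with 14.4% of all genes called, 643 higher and 553 lower (804 and 400 with TPM). FJX1 reached 4.15 times its IAA level, at 4.65 ± 0.255 FPKM (SD, n = 2; limma log2 change 1.42, adjusted p = 0.0033). AXL reached 1.48 times its IAA level, at 4.12 ± 0.253 FPKM (SD, n = 2; limma log2 change 0.44, adjusted p = 0.0138). AJUBA fell to 0.742 of its level with IAA (limma adjusted p = 0.0457, 0.0521 with FPKM rescaled to TPM). Without 1 library the adjusted p was 0.06 to 0.169 for AJUBA, above 0.05 in each of the 6 fits. For AXL it was 0.077, 0.0639, 0.0655 and 0.0535 without IAA replicate 1, IAA replicate 2, washout replicate 1 and washout replicate 2. On recovered reads 6 rose, 2 fell and 2 did not pass, against 25.4% of all genes called. The 6 were FJX1, AXL, ANKRD1 (voom log2 change 2.32, SE 0.55), TEAD1 (0.28, SE 0.05, adjusted p = 8.66e-06), YAP1 (0.19, SE 0.05, adjusted p = 0.0016) and CYR61. CYR61 (0.18, adjusted p = 0.0348) did not pass without IAA replicate 1 (0.509) or washout replicate 2 (0.221), or with library totals alone (0.0624). AJUBA and LATS2 (-0.27, SE 0.07) were the 2 that fell.

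Setting washout beside control asks what differed 48 h after IAA was removed, with the wash and the added time in culture included. By limma none of the 7 tested genes passed, none of them had an unadjusted p under 0.05, and 0% of all 8317 genes did (750 had an unadjusted p under 0.05). By voom 0.674% of all genes were called. Among the 10 genes that was TEAD1 alone, at a log2 change of 0.18 (SE 0.04, adjusted p = 0.0442). Both washout libraries, 4314 and 4443 reads, lay above both control libraries. The TEAD1 call did not hold without control replicate 1 (0.162), control replicate 2 (0.354) or washout replicate 2 (0.219). For the genes that had changed with IAA, the washout level was 1.07-fold of control for FJX1 (interval of the limma log2 difference -0.11 to 0.27), 1.04-fold for AXL (-0.09 to 0.17) and 1.09-fold for AJUBA (-0.11 to 0.33). LATS2 had a voom interval of -0.14 to 0.15. ANKRD1 stood furthest from control of these genes, at 1.32-fold, with a wide voom interval of -0.47 to 1.19.

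The promoters of 8 of the 10 genes were matched to RefSeq (GRCh38.p14), giving 11 windows from 250 bases before to 50 bases after an annotated start. CYR61 and TEAD1 were not matched. The windows were searched on both strands for the TEAD motif GGAATG, which reads CATTCC from the opposite strand, for the AP-1 motif TGACTCA, which reads TGAGTCA from the opposite strand, and for the E-box CACGTG, which reads the same from both. No match overlapped another. The TEAD motif was in 7 of the 11 windows, beside 14.0% of all 35116 windows of that length. The genes were picked as known YAP targets, so nothing is drawn from the higher share. The stretches before the start are shown for CTGF and ANKRD1, classic TEAD targets that differed in their response, and for FJX1, the gene with the largest fall, 5′ to 3′ in the direction of transcription, with TEAD motif matches in capitals.
CTGF promoter, chr6:131951373-131951622, minus strand: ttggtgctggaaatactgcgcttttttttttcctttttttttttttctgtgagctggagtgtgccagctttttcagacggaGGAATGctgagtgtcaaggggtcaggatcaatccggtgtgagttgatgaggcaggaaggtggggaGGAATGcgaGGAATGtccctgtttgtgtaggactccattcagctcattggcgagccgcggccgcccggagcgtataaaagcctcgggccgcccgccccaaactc
ANKRD1 promoter, chr10:90921088-90921337, minus strand: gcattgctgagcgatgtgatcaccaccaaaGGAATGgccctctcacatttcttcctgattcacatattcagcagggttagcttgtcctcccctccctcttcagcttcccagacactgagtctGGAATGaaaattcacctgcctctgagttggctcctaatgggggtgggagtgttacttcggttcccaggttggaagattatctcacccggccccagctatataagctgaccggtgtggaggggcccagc
FJX1 promoter, chr11:35618210-35618459, plus strand: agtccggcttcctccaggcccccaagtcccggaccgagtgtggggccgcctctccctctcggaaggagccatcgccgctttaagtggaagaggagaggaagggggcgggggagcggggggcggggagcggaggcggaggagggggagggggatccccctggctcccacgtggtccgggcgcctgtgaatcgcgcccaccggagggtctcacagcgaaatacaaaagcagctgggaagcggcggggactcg

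CTGF held 3 matches, 169, 104 and 95 bases before the start, and ANKRD1 held 2, at 220 and 128 bases. FJX1 held none in this window, which says only that these letters are not in it. Of the 2 promoters with repeated matches, that of CTGF belongs to a gene not called with IAA and that of ANKRD1 to a gene that fell. The E-box was in the windows of FJX1 (85 bases before the start), YAP1 (203 bases) and LATS2, beside 7.26% of all windows, and AP-1 in none of the 11, beside 4.95%. Single TEAD matches were found before a start of AJUBA, AMOTL2, AXL and YAP1, shown here with 12 bases on each side and the match in capitals because AJUBA rose, AXL fell and AMOTL2 was not called. Those of AJUBA, AMOTL2 and AXL lie before the second listed start of each gene, and LATS2 had 1 match 10 bases after its start.
AJUBA motif window, chr14:22976884-22976913, minus strand: gggaagttggctGGAATGaagccaaagcaa
AMOTL2 motif window, chr3:134374499-134374528, minus strand: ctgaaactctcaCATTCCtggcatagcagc
AXL motif window, chr19:41226531-41226560, plus strand: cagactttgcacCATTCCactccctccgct
YAP1 motif window, chr11:102110273-102110302, plus strand: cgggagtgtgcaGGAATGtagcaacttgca

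**Figure D3:**
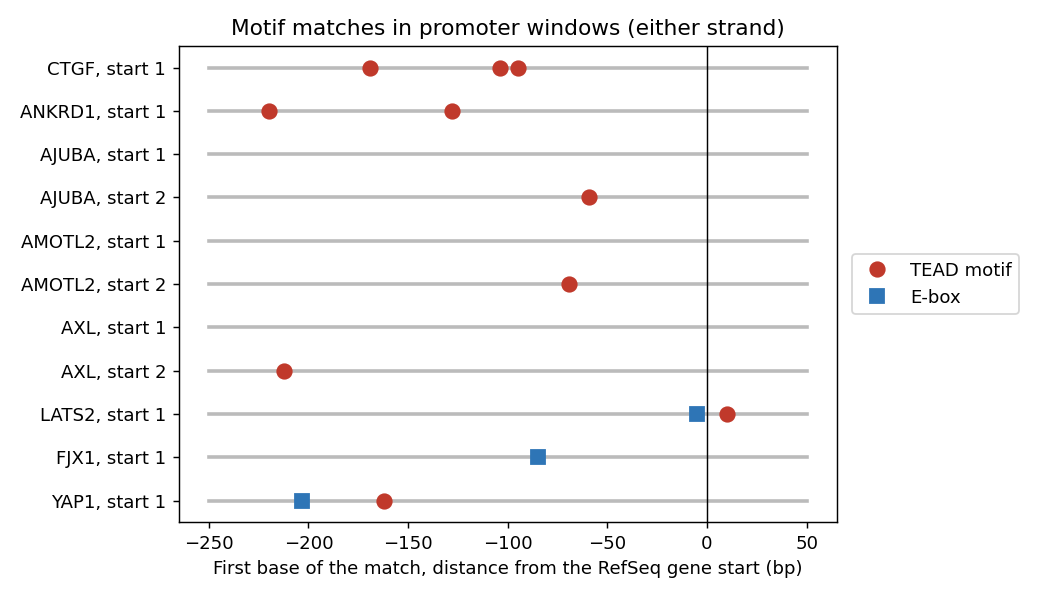
Position of motif matches in the 11 promoter windows, from 250 bases before to 50 bases after each RefSeq start (horizontal axis in bases). Circles are TEAD motif matches and squares are E-boxes. CTGF has 3 and ANKRD1 has 2 TEAD matches, and FJX1 has an E-box only.

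Other targets of YAP and TEAD were read from a list of 45 further genes, of which 44 were in the table. Among 19 tested by limma in IAA against control, 3 were higher, 5 lower and 11 not called, where 13.1% of all genes were called. Their median log2 change was -0.11, beside 0.01 over all genes. F3, tissue factor, fell from 26.2 and 27.9 to 7.17 and 6.91 FPKM and stood at 20.1 and 22.5 after washout (limma log2 change with IAA -1.80, SE 0.07, adjusted p = 0.00167). PHLDB2, a protein of the cell cortex, fell from 2.70 and 2.72 to 1.19 and 1.20 FPKM and had 2.38 and 2.46 after washout (limma log2 change -0.76, SE 0.03, adjusted p = 0.00205 with IAA). Its log2 change with IAA on recovered reads was -1.22 (SE 0.04). THBS1, the matrix protein thrombospondin, fell from 18.0 and 17.9 to 10.9 and 10.1 FPKM (limma adjusted p = 0.00768). GADD45A, a stress and DNA damage gene, rose from 17.3 and 15.8 to 26.3 and 22.7 FPKM (limma adjusted p = 0.0264). On recovered reads 4 of 35 were higher, 15 lower and 16 not called, where 23.9% of all genes were called, and the median log2 change was -0.15 beside 0.0012 over all genes. After washout F3 and PHLDB2 were below control by voom (log2 change -0.36, adjusted p = 2.84e-05, and -0.18, adjusted p = 0.00669). Limma did not call them in this comparison (adjusted p = 0.507 and 0.524).

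Among Hippo kinases and adaptors, 1 of 11 tested by limma was lower and 0 higher with IAA, where 13.1% of all genes were called. The gene was NF2, the tumour suppressor merlin that activates LATS kinases at the membrane, at 2.04 and 2.09 FPKM in control, 1.38 and 1.39 under IAA and 2.15 and 2.38 after washout (limma log2 change -0.36, SE 0.04, adjusted p = 0.0156). On recovered reads the log2 change of NF2 was -0.61 (SE 0.05). There 2 of 25 listed genes were higher and 6 lower with IAA, beside 23.9% of all genes called in either direction. LATS2, described above, rose and is not counted in this list. The other core kinases were not called: LATS1 had 1257 and 1142 reads in control and 1333 and 1308 with IAA (voom adjusted p = 0.246), and the MST kinases STK3 and STK4 had adjusted p = 0.299 and 0.0876. Of the genes that control YAP and TAZ turnover, 1 of 9 was lower by limma, beside 13.1% of all genes called. It was SOCS6, a ubiquitin ligase adaptor, at 0.81 of control (limma log2 change -0.22, adjusted p = 0.0223, and -0.34 on recovered reads). On recovered reads 3 of 10 turnover genes were lower and 0 higher, beside the same 23.9%.

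None of the 8 listed YAP and TEAD partners reached the FPKM filter, and 5 had enough reads for voom. WWTR1, which encodes TAZ, the close relative of YAP, fell from 2658 and 2725 to 2354 and 2234 reads and had 2830 and 2561 after washout (log2 change with IAA -0.26, SE 0.05, voom adjusted p = 0.000323). VGLL4, which competes with YAP for TEAD, rose from 902 and 944 to 1145 and 1116 reads and had 925 and 901 after washout (0.26, SE 0.07, adjusted p = 0.00452). TEAD2, TEAD3 and TEAD4 had log2 changes of -0.17, -0.22 and -0.16 and were not called (adjusted p = 0.295, 0.173 and 0.312).

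**Figure D4:**
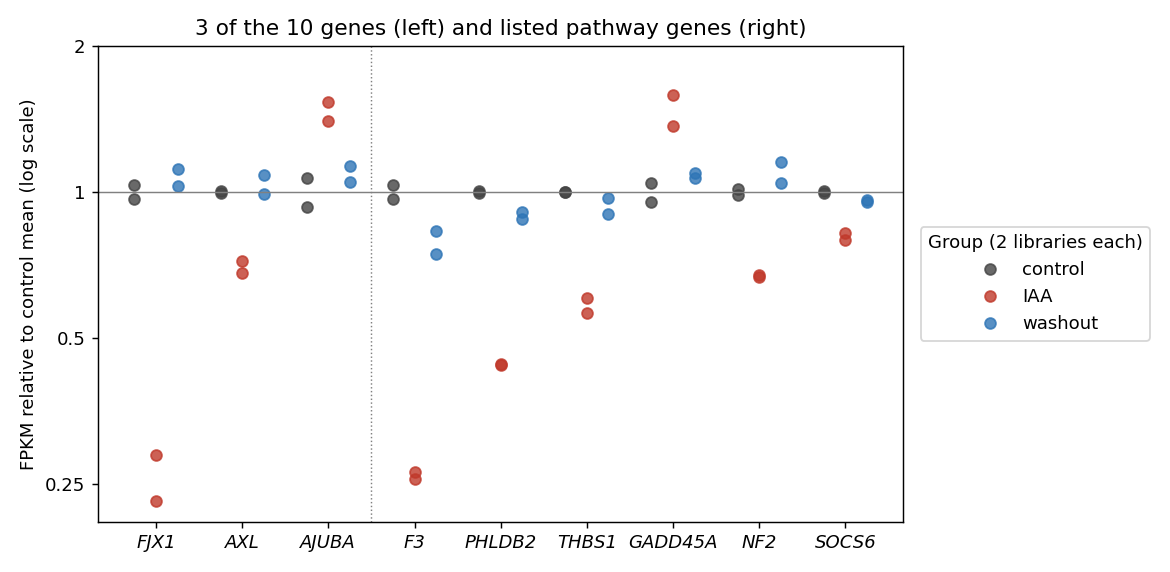
FPKM of FJX1, AXL and AJUBA (left of the dotted line) and of the named pathway genes (right), each divided by its control mean, on a log axis. Points are single libraries. AJUBA and GADD45A are above 1 with IAA, the other 7 genes are below 1, and F3, PHLDB2, THBS1 and SOCS6 lie below both of their control libraries after washout.

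The 3 tested genes closest to FJX1 in their centred log2(FPKM + 1) values over the 6 libraries were SOX4 (distance 0.202), PLAU (0.215) and TRIB1 (0.293). SOX4 had 48.7 and 51.4 FPKM in control, 19.5 and 20.1 under IAA and 52.6 and 53.3 after washout. The 3 closest to AJUBA were ULBP3 (0.0805), TNRC18P1 (0.0981) and MXD4 (0.11). ULBP3 had 1.71 and 1.95 FPKM in control, 3.10 and 3.00 under IAA and 2.11 and 1.93 after washout. The 6 libraries fall into 3 groups, so likeness here mostly means a like size of change between the groups on the log2(FPKM + 1) scale. That scale shrinks the change of FJX1, at a mean of 1.12 FPKM under IAA, more than those of its 3 neighbours. Likeness to FJX1 is therefore not a like fold change.

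Exons of 5 of the 10 genes share bases with another GENCODE 29 gene. Whether counting used strand is not stated in the labels, so reads of such pairs may not be told apart. YAP1 shares 628 of its 6296 exon bases with an antisense gene, CTGF 195 of 2339 and AXL 67 of 5154. AMOTL2 shares 187 bases with the pseudogene RPL39P5, which was listed at 0 in all libraries, and AJUBA 50 bases with a gene on its own strand. FJX1, ANKRD1, LATS2, CYR61 and TEAD1 share none.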

How the data were processed

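Poly(A)-selected RNA was sequenced per the labels' protocols. The authors deposited FPKM, 1 value per gene and library. The submitters' processing notes name HISAT, Bowtie2, HTSeq and edgeR and the hg19 build, without versions, order or annotation. The test covered genes whose mean FPKM over the 6 libraries reached 1. They were fitted with limma 3.58.1 (R 4.3.3) on log2(FPKM + 1), 1 mean per group over all 6 libraries, trended prior variance, 3 residual degrees of freedom. Adjusted p is Benjamini-Hochberg over all genes tested, two-sided, threshold 0.05.

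Whole reads were recovered as FPKM times length times library total, with gene spans from GENCODE 29. Of 21707 genes above 0, 96.6% gave whole reads in all libraries (tolerance 0.02 reads), 77.7% at the span itself. Genes with at least 10 mean reads were tested with voom and TMM factors. The prior degrees of freedom were 33.2 in voom and 1.81 in limma on FPKM. Voom p-values thus rest mostly on a spread shared across genes. In 9733 genes with long introns the span gave whole reads for 74.6% and the exon length for 0%. For FJX1, TEAD1 and MLLT1 the nearest whole solution was used. Intervals are 95% and model-based. Both scripts were tested on simulated data.

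All 10 genes are reported. From each further list up to 4 genes called by limma with IAA were named, those with the smallest adjusted p. MLLT1 was also named, with the 3 genes nearest in profile to the members with the largest rise and fall. Other names were chosen after values were seen. Members and lists were chosen with earlier results of these data known. Alternatives were another pseudocount, filters, TPM scaling, recovered reads, a replicate block and leaving out each library. Voom with library totals, with the block and without each library was added after seeing the data.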

Additional observations from a re-analysis of the deposited data

How the results depend on the processing

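Counts of called genes depended on the number of libraries and on the unit. For IAA against control 1092 genes were called, 3483 on recovered reads and 50 to 534 without 1 library. For washout against IAA 1196 were called, 3693 on recovered reads and 46 to 421 without 1 library. For washout against control 0 were called, 98 on recovered reads, 48 with no filter and 27 with a pseudocount of 0.1 and a mean FPKM of at least 0.1. Same-numbered replicates did not deviate together (correlations of 0.04, -0.03 and 0.01 between groups), so nothing shows that the numbers pair the samples. With the replicate number as a block, which leaves 2 residual degrees of freedom, 486 and 532 genes were called in the first 2 comparisons and AJUBA did not pass (0.0665 and 0.0916). On recovered reads the block ended only the TEAD1 call in washout against control (0.0593). None of the fits of the 10 genes turned the direction of a call. In limma with no filter AJUBA (0.0735 and 0.107) and LATS2 (0.0688 and 0.0732) did not pass in the first 2 comparisons, nor ANKRD1 with IAA (0.0832) or TEAD1 in washout against IAA (0.103). With a pseudocount of 0.1 and a mean FPKM of at least 0.1 ANKRD1 did not pass with IAA (0.0816), nor AJUBA (0.071) or TEAD1 (0.0581) in washout against IAA. The calls that voom alone made for CYR61 and YAP1, and for TEAD1 in washout against control, were absent under both settings. Read number limits ANKRD1 most.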

Other observations

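Genes of cell junctions and polarity that feed into the Hippo pathway were split in direction. By limma 0 of 9 tested were called in IAA against control (1 had an unadjusted p under 0.05), where 13.1% of all genes were called. On recovered reads 5 of 18 were higher and 4 lower with voom, beside 23.9% of all genes called in either direction. FAT4, an atypical cadherin of the family that FJX1 relatives modify, rose from 85 and 90 reads in control to 253 and 288 under IAA and had 150 and 175 after washout. Its log2 change was 1.59 (SE 0.18, voom adjusted p = 1.14e-08), and after washout it was above control (0.87, SE 0.20, adjusted p = 0.0209). TJP1, a tight junction scaffold, rose from 5355 and 5203 to 6256 and 6277 reads and had 5603 and 5853 after washout (voom log2 change 0.22, adjusted p = 9.59e-05). WWC1, the adaptor KIBRA that works with NF2, fell from 2376 and 2492 to 1812 and 1960 reads and had 2770 and 2571 after washout (-0.40, adjusted p = 6.65e-07). These 3 genes were chosen after their values were seen.

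Among the further YAP and TEAD targets that FPKM testing missed for their low values, EDN1, the vasoconstrictor endothelin, had 72 and 72 reads in control, 25 and 20 under IAA and 59 and 65 after washout (voom log2 change -1.70, SE 0.33, adjusted p = 0.000137). TGFBR2, a TGF-beta receptor, had 890 and 809, 457 and 467, and 900 and 875 reads (-0.91, SE 0.09, adjusted p = 2.7e-10). Both were chosen after their values were seen.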
